A study of Mus musculus with 4 samples.

Results

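The genes described here are 10 contractile genes that mark smooth muscle cells and myofibroblasts: Acta2, Actg2, Tagln, Cnn1, Myl9, Tpm1, Tpm2, Myh11, Myocd and Lmod1. They were taken by name from the 54842 genes in the counts table, by a rule that uses no count, though the list was drawn up with earlier results of these data known. Sequencing was of rRNA-depleted total RNA from mouse embryonic fibroblasts (MEF cells), the connective tissue cells that grow out of dissociated embryos. The study asked for a topological role in the transcription of satellite repeats and compared untreated wt MEF cells (2 libraries) with untreated MEF cells null for Top2β (2 libraries), the DNA topoisomerase that relieves torsion during transcription. All 4 libraries came from cells kept in high glucose medium with serum, and age and strain are not given in the sources used here. The null cells derive from null mice and were a gift from other laboratories. The study does not state that the wt cells share their origin, so that genotype and origin of the cells cannot be told apart. The labels do not say whether replicates were separate cultures, and p-values measure the spread between these libraries, which may be technical.

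Contractile cells pull by sliding myosin along actin filaments. Smooth muscle uses its own actins, a calcium-regulated myosin, and tropomyosins, calponin and transgelin that bind and stabilize the filament. Fibroblasts make a part of this set when they become myofibroblasts, the cells that close wounds, and cultured fibroblasts often carry it in their stress fibres. Many of these genes are driven by serum response factor (Srf), which binds a short promoter element, the CArG box, together with the cofactors Mrtfa and Mrtfb or, in smooth and cardiac muscle, Myocd.

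The deposited counts summed to between 133116830 and 149647278 per library. Levels below are normalized counts, scaled by edgeR's TMM factors to a common effective library size. Top2b, the targeted gene, had 18259 and 18465 normalized counts in wt and 3879 and 3789 in the null libraries (log2 fold change -2.26, standard error 0.0271, adjusted p = 6.6e-19, edgeR). Fibroblast markers differed in level. Vim, an intermediate filament gene of mesenchymal cells, had 364752 and 367618 normalized counts in wt and 203170 and 206247 in the null libraries, while Dcn, a matrix proteoglycan, had 226 and 223 in wt and 7053 and 7239 in the null libraries, and Lum, another fibroblast marker, stayed at or below 3.96 in every library.

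Most contractile genes were lower when Top2β was missing, with 3 exceptions (Tpm1, which changed by less than the fold cut-off, Myh11 and Myocd). The 10 genes together had 229279 and 231822 normalized counts in wt against 65677 and 66653 in the null libraries, or 0.160% and 0.160% against 0.0476% and 0.0487% of all counts. Of the 9 genes with enough counts to be tested, 7 were called lower and 0 higher, where a call needs a mean above 100 normalized counts, a log2 fold change beyond 1 in either direction and an adjusted p below 0.05. Of all 26566 genes and repeat families tested, 4.97% were called lower and 5.27% higher by this rule. With the adjusted p alone, 8 of the 9 were lower and 0 higher, against 32.5% lower and 32.5% higher among all features. In 8 genes both wt libraries lay above both null libraries, which held for 40.2% of all features. The median log2 fold change of the 9 genes was -3.55, and that of all features was 0.0027. In bulk RNA, fewer cells that make a transcript and less transcript per cell cannot be told apart.

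**Figure D1:**
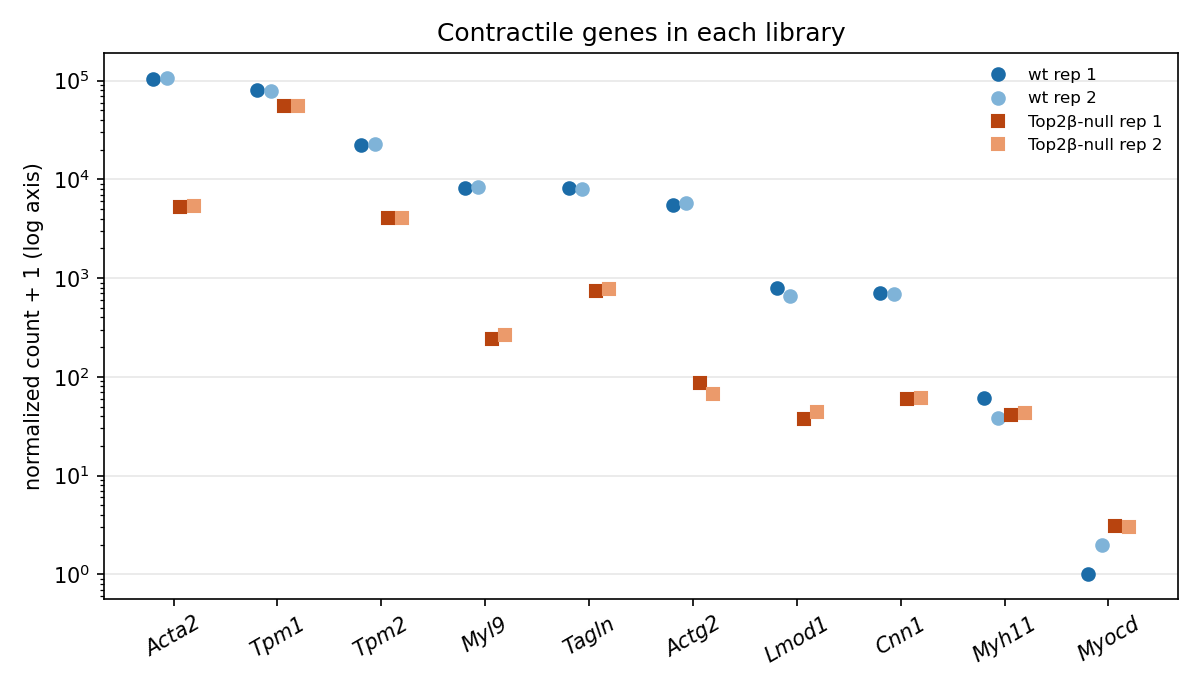
Normalized count plus 1 (log axis) of each contractile gene in each of the 4 libraries, wt as blue circles and Top2β-null as orange squares. Replicates of a genotype lie close together, and the genotypes overlap only for Myh11, whose null values of 40.4 and 41.6 lie between the wt values of 37.7 and 60.6.

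The promoters that hold a CArG box are shown first, since this is the element through which contractile genes are known to be switched on. RefSeq promoter sequences of GRCm38.p6, from 250 bases before to 50 bases after the start of transcription, were at hand for 6 of the 10 genes (Acta2, Cnn1, Myl9, Tpm1, Tpm2 and Lmod1). Actg2, Tagln, Myh11 and Myocd had no entry. The search covered both strands. A mismatch here is a C or G among the A or T bases between the CC and GG of the box. Boxes altered in the CC or GG were not searched for. Each box is printed 5′ to 3′ on the strand of its gene, in capitals, with 10 bases on each side.
Acta2, with 1 mismatch, chr19:34255438-34255467, reverse strand: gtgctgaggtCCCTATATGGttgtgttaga
Acta2, with 1 mismatch, chr19:34255388-34255417, reverse strand: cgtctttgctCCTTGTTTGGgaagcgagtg
Myl9, exact, chr2:156775293-156775322, forward strand: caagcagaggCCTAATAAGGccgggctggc
Myl9, with 1 mismatch, chr2:156775355-156775384, forward strand: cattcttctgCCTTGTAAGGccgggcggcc
The Acta2 boxes begin 84 and 34 bases before the RefSeq start, and the Myl9 boxes 161 and 99 bases before it. These starts differ from those of the gene spans printed below, and both Acta2 boxes lie inside the span of Acta2. A box that is exact or has 1 mismatch was found in 2 of the 6 promoters, and in 9.98% of all 32851 promoters. An exact box was found in 1.63% of all promoters. Cnn1, Tpm1, Tpm2 and Lmod1 had no box with up to 1 such mismatch in this window. This says nothing of boxes altered in the CC or GG, of sequence outside the window or of Srf binding.

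Of the related genes called lower with an exact box, those shown beside these are Actg1, a cytoplasmic actin, Cnn2, a calponin of non-muscle cells, and Fhl1, a LIM-domain protein of muscle.
Actg1, chr11:120348566-120348595, reverse strand: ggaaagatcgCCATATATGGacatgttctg
Cnn2, chr10:79988534-79988563, forward strand: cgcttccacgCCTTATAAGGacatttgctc
Fhl1, chrX:56779571-56779600, forward strand: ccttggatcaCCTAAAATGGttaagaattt
They were chosen for display after their values were seen, and a box did not go with a call in every related gene. Exact boxes also stood in the promoters of Ldb3 and Acta1, which were called lower. Others stood in those of Myl6 (log2 fold change -0.996), Vcl (-0.89), Filip1l (-0.13), Srf (-0.98) and Fhl2 (-0.55), which were not called. This listing of related genes is not complete. Some were left out whether or not they hold a box, among them Egr1 and Pdgfrb, called higher, and Gata6 and Lox, called lower. Among promoters of genes called lower, 3.04% of 1051 held an exact box, among those of genes called higher 1.61% of 1118, and among those of genes over the mean cut-off 1.41% of 12843. These shares are given as a description, without a test.

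Acta2 encodes alpha smooth muscle actin, the classical marker of myofibroblasts (ENSMUSG00000035783.8, chr19:34241090-34255590, reverse strand). It had 104063 and 106902 normalized counts in wt and 5256 and 5432 in the null libraries. The null libraries thus held 5.07% of the wt mean, and their gap to wt was far wider than the spread between replicates (105482 ± 2007 against 5344 ± 124, SD, n = 2). Its log2 fold change was -4.30 (standard error 0.0323, 95% interval -4.37 to -4.23, adjusted p = 4.7e-21, edgeR). Among genes over the mean cut-off, 100 had a log2 fold change as low as or lower than that of Acta2, itself included.

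Actg2 encodes the gamma actin of visceral smooth muscle (ENSMUSG00000059430.14, chr6:83512905-83536265, reverse strand). It had 5548 and 5718 normalized counts in wt and 84.9 and 65.4 in the null libraries. The null mean was 1.33% of the wt mean, the widest difference of the 9 genes tested (log2 fold change -6.23, standard error 0.0724, adjusted p = 4.6e-19, edgeR). Of all features tested, 121 genes had a lower log2 fold change.

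Myl9, the regulatory light chain whose phosphorylation switches smooth muscle and non-muscle myosin on, lies at chr2:156775420-156781658 on the forward strand (ENSMUSG00000067818.6). It had 8093 and 8285 normalized counts in wt and 239 and 262 in the null libraries. The groups were 32.7-fold apart (log2 fold change -5.03, standard error 0.0485, adjusted p = 6.6e-20, edgeR).

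Myh11, the smooth muscle myosin heavy chain and the most specific marker of differentiated smooth muscle in the list, was low in both genotypes (ENSMUSG00000018830.10, chr16:14194535-14291372, reverse strand). It had 60.6 and 37.7 normalized counts in wt and 40.4 and 41.6 in the null libraries. The groups overlapped, and the wt replicates differed by more than the group means. Its log2 fold change was -0.26 with a 95% interval from -0.86 to 0.35 (adjusted p = 0.449, edgeR), and without wt replicate 1 it was 0.107. A change of the size seen in Acta2 lies outside this interval.

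Myocd, the cofactor of Srf that drives the smooth muscle program (ENSMUSG00000020542.18, chr11:65176561-65269989, reverse strand), had 0 and 1 counts in wt and 2 and 2 in the null libraries. It was at or below 3 counts in every library, which is the limit that a count of 0 allows, and it has no fold change. Of the genes most specific to smooth muscle, Myh11 was thus low and Myocd near the detection limit in both genotypes, while the genes for actin, tropomyosin and light chain were expressed.

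Tagln, Cnn1 and Lmod1 encode proteins that bind actin filaments. Tagln, or transgelin, an early marker of smooth muscle and of myofibroblasts (ENSMUSG00000032085.5, chr9:45929619-45936058, reverse strand), had 8123 and 7982 normalized counts in wt and 731 and 782 in the null libraries. This is a difference of 10.6-fold (log2 fold change -3.41, standard error 0.0404, adjusted p = 5.8e-19, edgeR). The non-coding gene Gm48529 lies on the opposite strand and shares 3627 bases with Tagln. The ratio of Tagln to Gm48529 counts was 1.01 and 1.01 in wt and 1.05 and 1.05 in the null libraries. The strand setting of the counting is not given in the sources used here, so reads of both genes cannot be told apart. Summed, they had 16166 and 15888 normalized counts in wt and 1428 and 1531 in the null libraries, a log2 ratio of -3.44.

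Cnn1, or calponin 1, which inhibits the actomyosin ATPase of smooth muscle (ENSMUSG00000001349.5, chr9:22099216-22109630, forward strand), had 712 and 687 normalized counts in wt and 59.0 and 60.4 in the null libraries. The groups were 11.7-fold apart (log2 fold change -3.55, standard error 0.108, adjusted p = 5.6e-14, edgeR). Lmod1, or leiomodin 1, which starts new actin filaments in smooth muscle (ENSMUSG00000048096.7, chr1:135324807-135368065, forward strand), had 788 and 664 normalized counts in wt and 36.3 and 42.6 in the null libraries. The wt replicates of Lmod1 lay farther apart than those of Cnn1, yet the difference of 18.4-fold was wider still (log2 fold change -4.20, standard error 0.139, adjusted p = 1.8e-13, edgeR).

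Tropomyosins lie along the actin filament and control which proteins reach it. Tpm2, the beta tropomyosin (ENSMUSG00000028464.16, chr4:43514711-43523765, reverse strand), had 22317 and 22576 normalized counts in wt and 4111 and 4034 in the null libraries. This is 5.51-fold lower (log2 fold change -2.46, standard error 0.0269, adjusted p = 2.4e-19, edgeR). Tpm1, the alpha tropomyosin (ENSMUSG00000032366.15, chr9:67022590-67049406, reverse strand), had 79575 and 78971 normalized counts in wt and 55118 and 55931 in the null libraries. Its groups did not overlap, and the null libraries kept 70.0% of the wt mean (log2 fold change -0.51, standard error 0.0263, adjusted p = 4.5e-11, edgeR), which is less than the fold cut-off. Tpm1 makes muscle and cytoskeletal tropomyosins from one gene by alternative splicing, and counts per gene do not separate them.

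**Figure D2:**
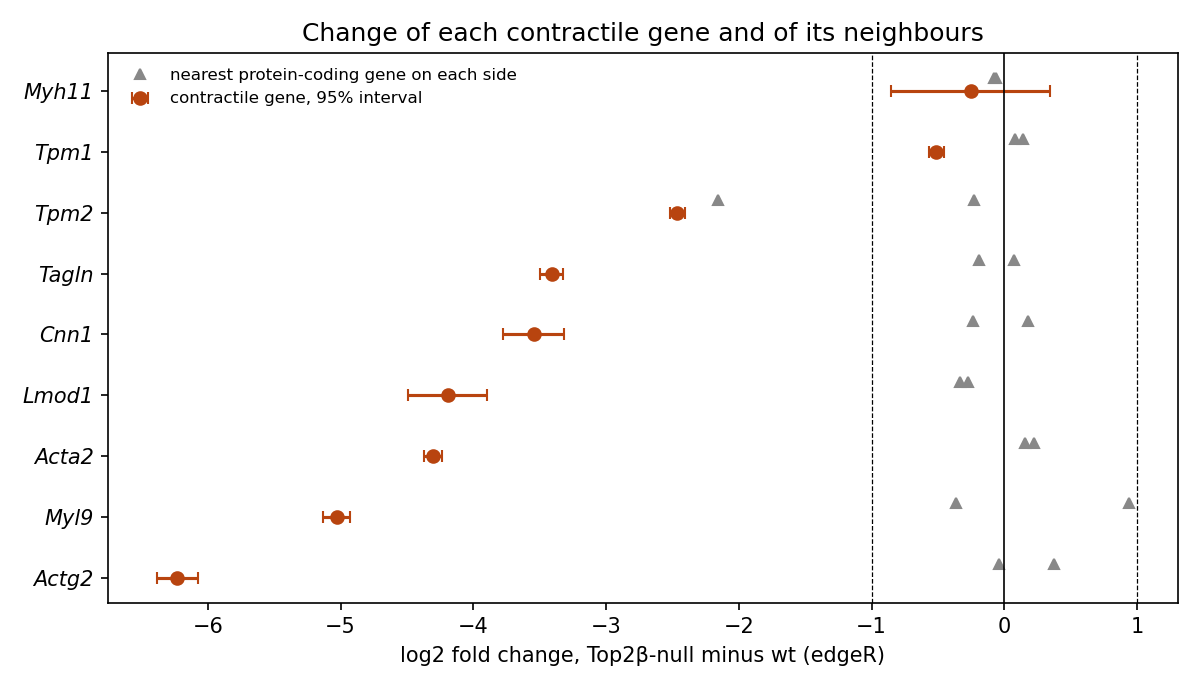
Log2 fold change of each tested contractile gene (orange, with its 95% interval) and of the nearest tested protein-coding gene on each side (grey triangles), with dashed lines at the fold cut-off of 1. Values run from -6.23 for Actg2 to -0.26 for Myh11, whose interval crosses 0, and 1 neighbour, that of Tpm2 at -2.16, lies below the cut-off.

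Ordered by log2 fold change, Actg2 lay below Myl9, Myl9 below Acta2, Lmod1 below Cnn1, Tagln below Tpm2, and Tpm2 below Tpm1, each with 95% intervals that did not overlap. Neighbours whose intervals overlapped were Acta2 and Lmod1, Cnn1 and Tagln, and Tpm1 and Myh11. The genes next to the contractile genes on the chromosome were called about as rarely as features at large. Of 20 flanking protein-coding genes, 1 was called lower and 0 higher, and their median log2 fold change was -0.049 (range -2.16 to 0.938). Among all features tested, 4.97% were called lower and 5.27% higher. By the adjusted p alone most of the 20 differed, against 32.5% lower and 32.5% higher among all features. Stambpl1, which lies 757 bases from Acta2, had a log2 fold change of 0.226, and Tgif2, the neighbour of Myl9, had 0.938. The 1 flanking gene called lower was Car9, a carbonic anhydrase gene beside Tpm2, with 617 and 576 normalized counts in wt and 136 and 131 in the null libraries. These flanking genes were added with the results known.

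**Figure D3:**
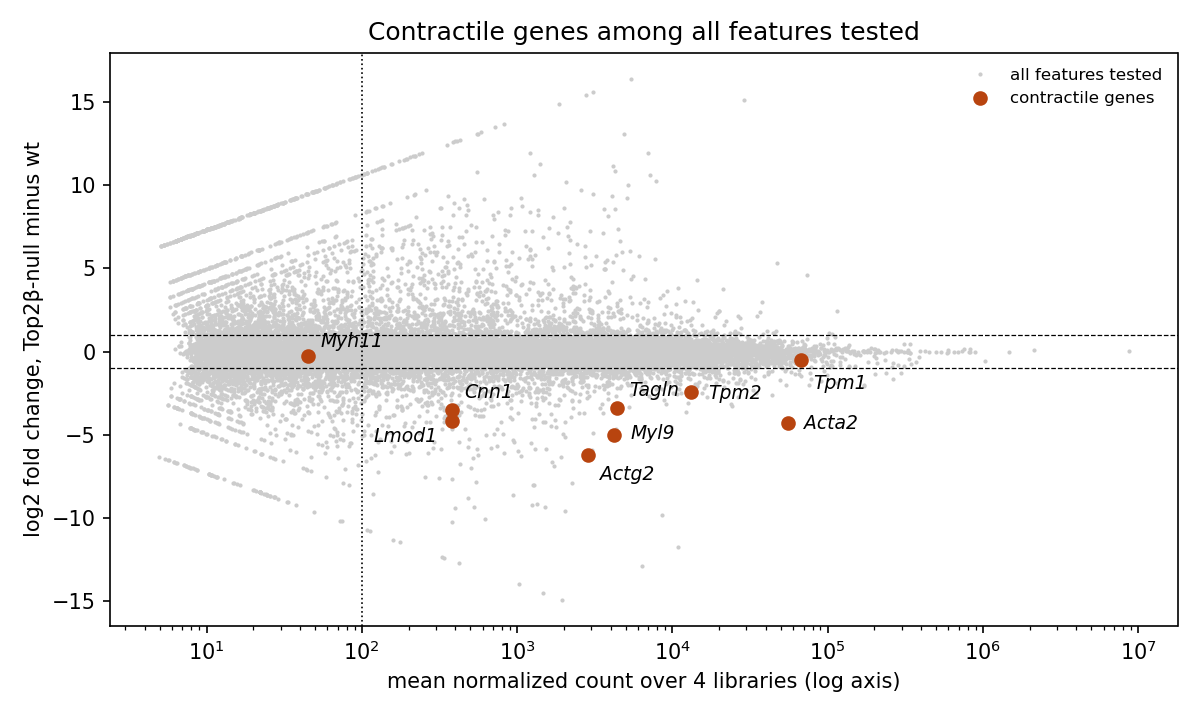
Log2 fold change against the mean normalized count over the 4 libraries (log axis) for all features tested (grey) and the contractile genes (orange), with dashed lines at the fold cut-off of 1 and a dotted line at the mean cut-off of 100. Acta2, with a mean of 55413 normalized counts and a log2 fold change of -4.30, lies far below the lower dashed line, Tpm1 lies inside the dashed lines, and Myh11 lies left of the dotted line.

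To compare levels between genes, normalized counts were divided by the length of the exons. Per kilobase, the order in wt MEF cells was Acta2 (48034), Tpm1 (12224), Tpm2 (7716), Myl9 (7047), Tagln (4051), Actg2 (3618), Cnn1 (256), Lmod1 (184), Myh11 (6.46) and Myocd (0.0752). In Top2β-null MEF cells it was Tpm1 (8562), Acta2 (2433), Tpm2 (1400), Tagln (381), Myl9 (215), Actg2 (48.3), Cnn1 (21.8), Lmod1 (9.98), Myh11 (5.40) and Myocd (0.315). Neighbours in either order had library values that did not overlap, and the length of the longest transcript gave the same order. If the counts of Gm48529 were all from Tagln, its level would be 8062 in wt, above Tpm2, and 744 in null, with its place there unchanged (an alternative added after the data were seen). Acta2 thus moved from the first to the second place, behind Tpm1, and Tagln came before Myl9 in the null cells. Among 25072 genes ranked per kilobase, Acta2 went from rank 90 in wt to rank 2446 in null MEF cells, Myl9 from 789 to 13031, and Actg2 from 1684 to 18973. Tpm1 kept a place among the abundant transcripts (425 and 555).

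Since most of these genes belong to families with cytoplasmic members, their share within the family was computed per kilobase in each library, a value that needs no scaling between libraries. Acta2 made up 7.13% and 7.11% of the counts per kilobase of the 6 actin genes in wt, and 0.642% and 0.647% in the null libraries. Actg2 went from a mean of 0.536% to 0.0128%. Actb, a cytoplasmic actin, rose in share from 68.9% to 82.2%, and Actg1 went from 23.4% to 17.1%. The skeletal actin Acta1 stayed at or below 0.0274%, and the cardiac actin Actc1 had 0 counts. The log2 ratio of Acta2 to Actb was -3.56 and -3.56 in wt and -7.29 and -7.28 in the null libraries, which is a difference of -3.72, and the pooled replicate SD was 0.005. With 2 libraries against 2, no exact permutation test can go below p = 0.33, so these shares and ratios are given without a test.

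The share of Tpm2 among the 4 tropomyosin genes was 11.3% and 11.5% in wt and 3.13% and 2.96% in the null libraries. Tpm1 held 17.99% and 18.06% in wt and 18.85% and 18.38% in the null libraries, and Tpm4, a cytoskeletal tropomyosin, held 60.3% in wt and 65.7% in null MEF cells. With the longest transcript as length, the share of Tpm1 was 28.0% in wt and 28.6% in null MEF cells, and without length 33.8% and 34.4%. Tagln made up 12.6% of the transgelin counts per kilobase in wt and 2.46% in null MEF cells, the rest being nearly all Tagln2, the widely expressed form. With the Gm48529 counts added to Tagln, these shares would be 22.3% and 4.70%. The log2 ratio of Tagln to Tagln2 differed by -2.51 (pooled replicate SD 0.022). Cnn1 was a small part of the calponins in both groups (0.962% and 0.151%). Among these, Cnn2 held 67.18% and 67.25% in wt and 49.88% and 50.02% in the null libraries.

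Myl9 held 22.4% of the counts per kilobase of the regulatory light chains in wt and 1.59% in null MEF cells, where Myl12a (41.4%) and Myl12b (57.0%), its non-muscle relatives, made up nearly all. With the longest transcript as length, the share of Myl9 was 15.9% in wt and 1.06% in null MEF cells, and without length 13.3% and 0.884%. Among the leiomodins, Lmod1 went from 82.4% to 19.7% while Lmod2, a muscle leiomodin, went from 12.3% to 60.9%. The counts of Lmod2 themselves, 51.5 and 56.0 normalized counts in wt and 64.2 and 57.4 in the null libraries, did not overlap but did not pass the test (adjusted p = 0.519, edgeR). Myh11 was a trace among the myosin heavy chains, at 0.0230% in wt and 0.0375% in null MEF cells. Of the non-muscle chains, Myh9 went from 92.1% to 73.9% and Myh10 from 7.92% to 26.1%. The log2 ratio of Myh11 to Myh9 was higher in the null libraries by 1.07 (pooled replicate SD 0.368), with Myh9 itself called lower (log2 fold change -1.29).

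**Figure D4:**
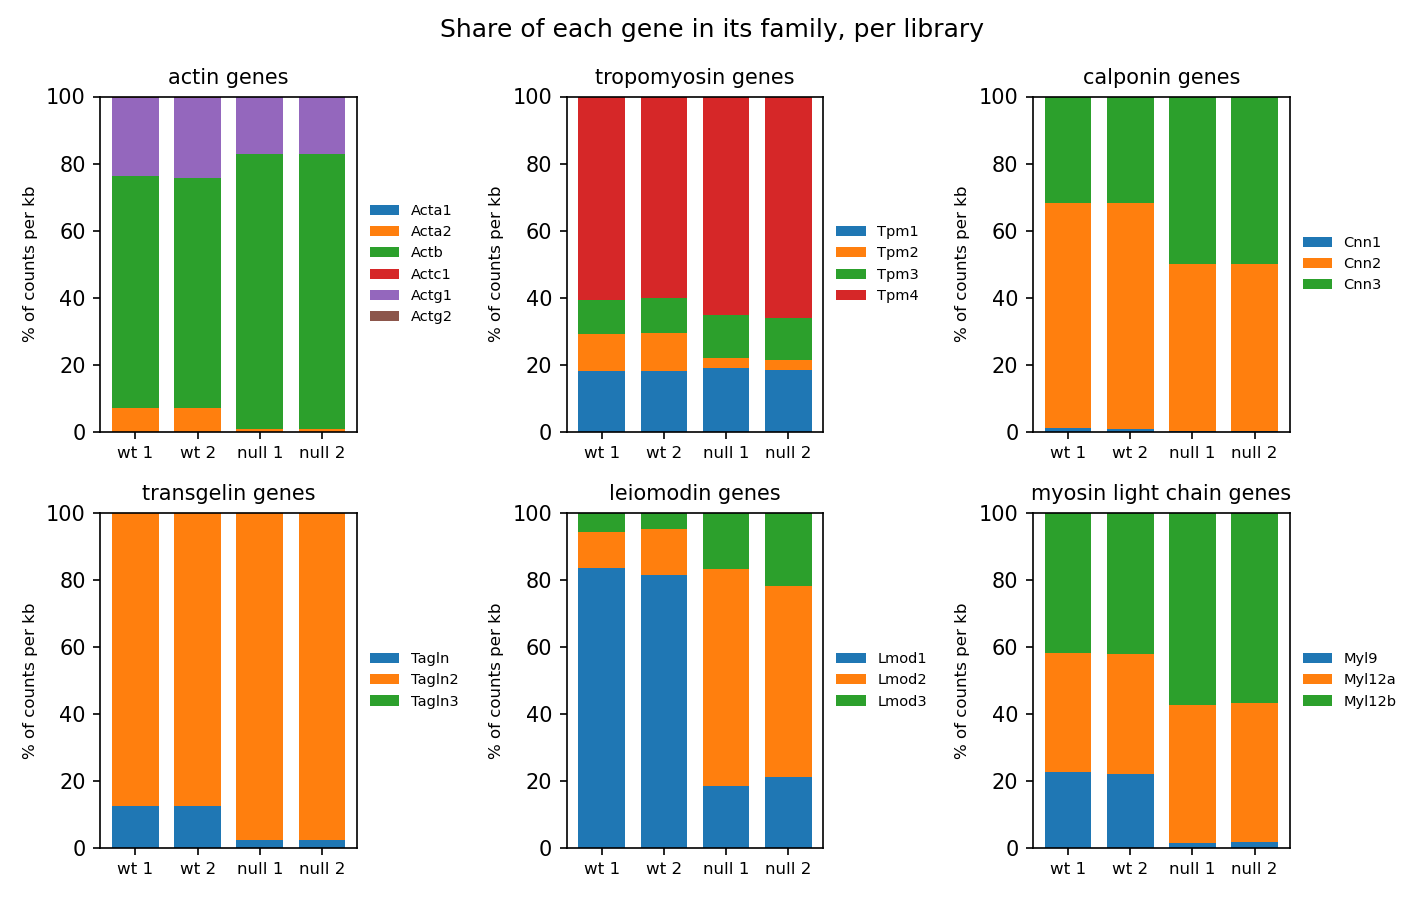
Share of each gene in the counts per kilobase of its family (percent), stacked for each of the 4 libraries, for 6 families. The bars for Acta2, Tpm2, Tagln, Lmod1 and Myl9 shrink in both null libraries, Tpm1 keeps its share, and Actg2, Cnn1, Tagln3, Acta1 and Actc1 are too small to be seen clearly.

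Reads of a family member could in principle be counted for another. No stretch of 150 bases, the read length, was shared between the annotated transcripts of a contractile gene and those of the listed relatives, although shorter shared stretches exist and reads with mismatches were not examined.

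Other genes of the contractile apparatus were mostly lower as well. Of 38 further genes for contractile and stress fibre proteins, 36 were tested, 9 were called lower and 0 higher, and their median log2 fold change was -0.79. With the adjusted p alone, 28 were lower and 4 higher. Among all features, 4.97% were called lower and 5.27% higher, and 32.5% were lower and 32.5% higher by the adjusted p alone. The 4 higher genes were Myh10 (log2 fold change 0.75), Cald1 (0.30), which encodes the actin-binding caldesmon, Smtn (0.22), which encodes smoothelin, and Rock1 (0.11), a kinase that promotes contraction. Tpm4, the most abundant of them per kilobase, had a log2 fold change of -0.43. The called genes with the widest change were Sorbs2, an adaptor at actin attachment sites, with 5883 and 6044 normalized counts in wt and 102.5 and 92.1 in the null libraries, and Ppp1r14a, an inhibitor of myosin phosphatase, with 190.8 and 206.7 against 6.21 and 7.92. Ldb3, a Z-disc protein, had 688 and 780 against 24.9 and 33.7. Synpo2, an actin bundling protein, had 756 and 759 against 63.2 and 66.4. Des, the intermediate filament gene of muscle, had 88.8 and 139 in wt and 2.07 and 0.990 in the null libraries and was not called, as its mean lay below the cut-off. Mylk, the kinase of the myosin light chain, had 237 and 189 against 186 and 191 (adjusted p = 0.270, edgeR). Des, Mylk, Cald1, Smtn and Rock1 were added with their values known. Among the 6 actin genes, 5 were tested and 4 called lower (Actg2, Acta2, Actg1 and Acta1), 2 of which are contractile genes described above. Actg1 had a log2 fold change of -1.29, Acta1 of -1.06 and Actb of -0.58.

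Srf and its partners changed in both directions. Of 22 genes for Srf, its cofactors and other regulators of smooth muscle genes, 20 were tested, 4 were called lower and 1 higher, with a median log2 fold change of -0.28. By the adjusted p alone, 12 were lower and 8 higher. Csrp1, a LIM-domain protein of smooth muscle and the most abundant per kilobase in wt, fell from 22204 and 22986 normalized counts to 2678 and 2624 (log2 fold change -3.09). Fhl1 had a log2 fold change of -3.65 and Gata6, a transcription factor of vascular smooth muscle, of -3.14. Mef2c, a transcription factor of muscle, rose from 15.1 and 10.6 normalized counts to 660 and 658 (log2 fold change 5.67, adjusted p = 1.3e-14, edgeR). Srf had 11972 and 12061 normalized counts in wt and 5896 and 6261 in the null libraries (log2 fold change -0.98, adjusted p = 5.0e-14, edgeR), just short of the fold cut-off. Its cofactors Mrtfa and Mrtfb had log2 fold changes of -0.20 and 0.86. Srf, Mrtfa and Mrtfb were added with their values known.

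Other known Srf targets, which include the early genes of the serum response, were also mixed. All 18 were tested, 4 were called lower and 3 higher, and their median log2 fold change was -0.71. By the adjusted p alone, 13 were lower and 5 higher. Egr1, an early response transcription factor, rose from 1406 and 1467 normalized counts to 20052 and 20770 (log2 fold change 3.83). Fos rose by 2.99 and Thbs1, a matrix glycoprotein, by 2.46 on the log2 scale. Ccn2, a matrix protein induced by tension and TGF-beta, fell from 34864 and 34692 to 7926 and 8216 (log2 fold change -2.11). Actb, the most abundant per kilobase, fell by 0.58 on the log2 scale.

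Myofibroblast markers that are not contractile genes did not move one way. Of 20 such genes, 19 were tested, 6 were called lower and 4 higher, and their median log2 fold change was -0.34. By the adjusted p alone, 12 were lower and 7 higher. Postn, a matrix protein of activated fibroblasts, fell from 2573 and 2563 normalized counts to 41.4 and 46.6 (log2 fold change -5.86). Cdh11, the cadherin of mesenchymal cells, rose from 224 and 231 to 11826 and 12283 (log2 fold change 5.73). Spp1, or osteopontin, rose from 2355 and 2330 to 91872 and 92697 (5.30), and Tnc, or tenascin C, from 11361 and 12049 to 61634 and 61689 (2.40). Fn1, the most abundant per kilobase over the 4 libraries together though not in either genotype alone, had a log2 fold change of -0.36.

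**Figure D5:**
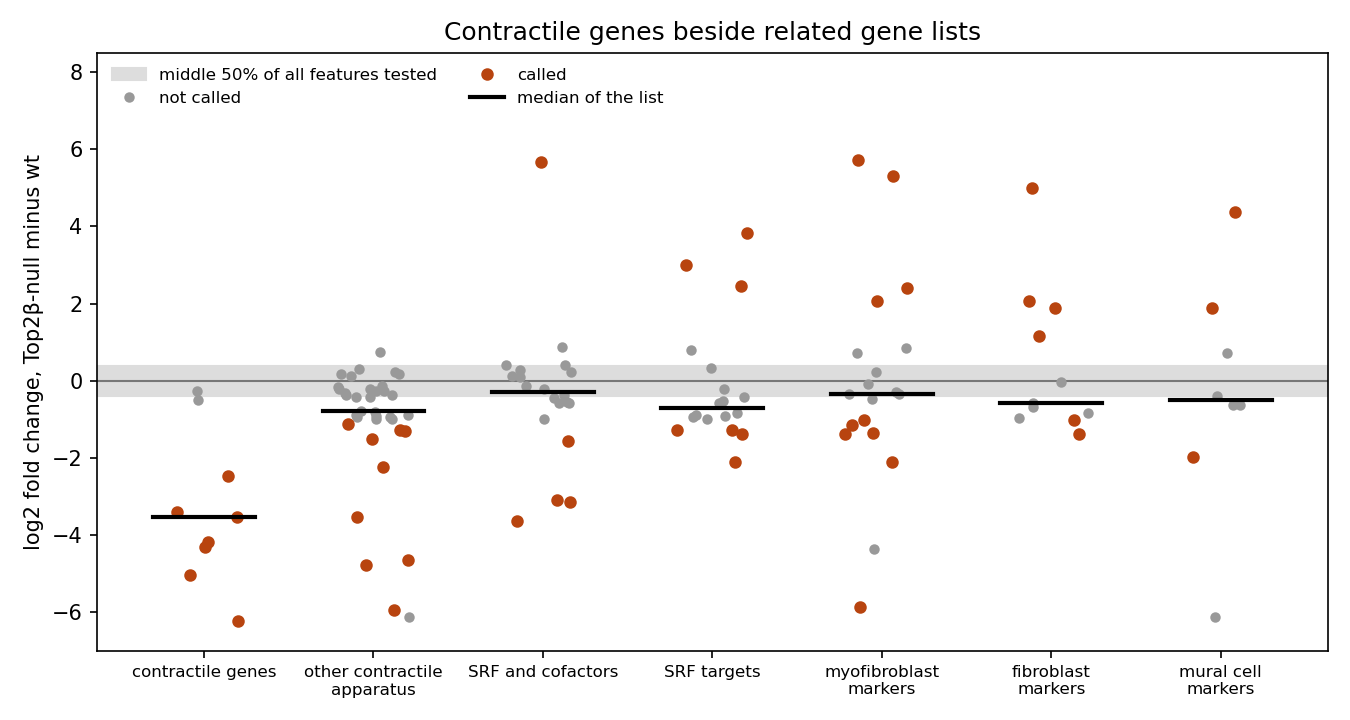
Log2 fold change of each tested gene in the contractile set and in 6 related lists, called genes in orange and others in grey, with black bars at the list medians and a grey band over the middle 50% of all features tested. The contractile genes have the lowest median of the lists drawn (-3.55), while the Srf, myofibroblast, fibroblast and mural cell lists hold called genes on both sides of 0.

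Markers of the cell types that a MEF culture could hold are given beside these results, and their part in them was not tested. Of 12 fibroblast markers, 11 were tested, 4 were called higher and 2 lower (median log2 fold change -0.59), with 4 higher and 6 lower by the adjusted p alone. Dcn, or decorin, rose by 4.99, Thy1 by 2.07 and Pdgfrb by 1.88 on the log2 scale, while Col1a1 fell by 1.38. Of 12 markers of pericytes and vascular mural cells, which can carry Acta2 and Tagln, 8 were tested, 2 were called higher and 1 lower (median -0.51). Their summed level ran from 41076 to 42376 normalized counts in wt and from 35242 to 35280 in the null libraries, most of it Cspg4 (log2 fold change -0.64). Notch3 rose by 4.37 and Mcam fell by 1.98 on the log2 scale. By the adjusted p alone, 3 of the 8 were higher and 4 lower. The pericyte markers Rgs5 and Abcc9 stayed at or below 4.04 normalized counts in every library, but other markers of the list did not. Cox4i2, for 1, had a mean of 46.3 normalized counts and a log2 fold change of 0.72.

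Muscle markers were low. The summed level of 18 skeletal muscle markers ran from 1245 to 1277 normalized counts in wt and from 1056 to 1099.9 in the null libraries. Of these, 5 were tested and 0 called (median -0.44; 1 higher and 3 lower by the adjusted p alone, edgeR), and Myod1, Myog, Myf5 and Pax7, which define the lineage, had at most 1.04. Mylpf, the most abundant per kilobase, had a log2 fold change of 0.81, the highest of the 5 tested, and the lowest was -5.08. The 13 cardiac markers summed to between 950 and 965 in wt and between 900.0 and 939 in the null libraries, with 5 tested and 0 called (median -0.20; 1 higher and 2 lower by the adjusted p alone, edgeR). Tnnt2, the most abundant per kilobase over the 4 libraries together, had a log2 fold change of -0.15, while the 5 tested ran from -1.055 to 1.859. Nkx2-5, Myh6 and Myh7 stayed at or below 6.06 normalized counts. The 10 endothelial markers summed to between 706 and 718 in wt and between 4007 and 4147 in the null libraries, with 8 tested and 2 called higher (Flt1, log2 fold change 3.15, and Kdr, 1.54; median of the list 0.35; 4 higher and 1 lower by the adjusted p alone). Flt1 made up most of this sum, while the defining markers Pecam1 and Cdh5 had at most 32.3 normalized counts in any library and Emcn at most 0.990. The 10 epithelial markers summed to between 331 and 353 in wt and between 107 and 138 in the null libraries, with 5 tested and 1 called lower (Cldn7, log2 fold change -2.07, also the median of the list; 1 higher and 4 lower by the adjusted p alone, among them Krt8 at -3.13 and Cldn4 at -3.76), and Epcam had at most 3.11.

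The genes whose 4 values were most like those of Acta2 were sought among genes over the mean cut-off, by the Euclidean distance of log2 normalized counts centred on each gene's mean over the 4 libraries. The nearest 5 were Sulf2, a heparan sulfatase (distance 0.0747), Wnk3, a kinase (0.0811), Skap1, an adaptor protein (0.107), the non-coding 2010300F17Rik (0.162) and Igfbp6, an IGF binding protein (0.185). Sulf2 had 2718 and 2852 normalized counts in wt and 139 and 152 in the null libraries. Among 16655 genes so ranked, Lmod1 stood at 12, Myl9 at 60, Cnn1 at 65, Tagln at 78, Tpm2 at 227, Actg2 at 253 and Tpm1 at 3126. With 4 libraries in 2 groups, this distance is mostly a measure of how similar the fold changes are. Relative to Acta2 in the same library, Lmod1 differed between genotypes by 0.10 on the log2 scale, less than its pooled replicate SD of 0.171, whereas Actg2 went further down by 1.94 (pooled replicate SD 0.213).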

How the data were processed

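Counts per gene and repeat family were deposited by the authors as whole numbers without normalization. The 150-base paired-end reads had been trimmed (Trim Galore!), aligned by STAR to mm10, also called GRCm38, and counted by TEtranscripts. The counting mode and strand setting are not given in the sources used here. Of 54842 gene identifiers, 54495 matched GENCODE M21, which gave symbols, positions and exon lengths, and 53229 of them had the same version. The study's methods name an earlier Gencode release, so exon lengths behind values per kilobase may differ from those the reads were counted on.

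Libraries were grouped by their labels. The chi-square between replicates, divided by its degrees of freedom, was 3.65 for wt and 5.07 for null, above counting noise, so each library was kept as a replicate. The 26566 features (25085 genes, the others repeat families) that reached 10 counts in 2 or more libraries were fitted with edgeR 4.0.16 in R 4.3.3 (TMM factors, quasi-likelihood test, genotype as the only term), with Benjamini-Hochberg adjustment across all of these features. The calling cut-offs are those of the study's methods, which applied them to DESeq2. Standard errors come from the fold change and the F statistic of the test. The test was checked on simulated data.

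The 10 genes, the lists and the alternatives were chosen with earlier results of these data known. Named genes are the 10, Top2b, family members, the 5 genes most like Acta2 and, in each list, the most abundant gene per kilobase and up to 4 called genes with the widest change. Other genes named, among them defining markers of other cell types, flanking genes and genes with a CArG box, were picked with their values known. Some genes stand in more than 1 list, such as Actb, Tpm4, Srf, Des and Col1a1. Mrtfa, Mrtfb, Ccn1 and Ccn2 were matched through older symbols, and 1 symbol, Myl12b, had 2 identifiers that overlap, of which the one with more counts was used. Alternatives were DESeq2 1.42.0, TMM factors from genes only, total-count scaling, no filter, a filter at 100 counts in every library, a replicate block, each library left out, the longest transcript as gene length and, added after the data were seen, a fold cut-off of 2, shares without length and the sum of Tagln and Gm48529.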

Additional observations from a re-analysis of the deposited data

How the results depend on the processing

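The counts of contractile genes called (7 lower, 0 higher) were the same with DESeq2, genes-only TMM factors, total-count scaling, no filter, the replicate block and each library left out, and with an absolute log2 fold cut-off of 2. Where a library is left out, its genotype has 1 library, which is assumed to vary like those of the other genotype. With at least 100 counts in every library, 4 were called lower and 5 were lower by the adjusted p alone, because this filter removes Actg2, Cnn1, Lmod1 and Myh11. All 50 values of single genes from fits with every library had the direction and the call reported, as did 35 of 36 with a library left out. The exception was Myh11, which ranged from -0.576 to 0.107 with each library left out, at 0.107 (adjusted p = 0.821, edgeR) without wt replicate 1, and at 37.7 to 60.6 normalized counts its depth gives no direction. Acta2 ranged from -4.30 to -4.23 with all libraries and from -4.34 to -4.24 with each left out. With the replicate block its log2 fold change was -4.30 and 7 genes were called lower. The deviations of libraries that share a number correlated at 0.0197 over 17952 features, so the numbers are not shown to pair. The share of Acta2 among actins was 5.63% in wt and 0.501% in null with the longest transcript, and 5.94% and 0.530% without length. That of Tpm2 among tropomyosins was 10.5% and 2.78%, and 9.58% and 2.52%. Without length, the shares of Actg2 (0.317% and 0.00746%), Lmod1 (90.0% and 32.3%) and Myh11 (0.0137% and 0.0232%) in wt and null moved by over 1.5 times in at least 1 genotype, as did those of Tpm1 and Myl9, with the same direction between genotypes.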
